A study of Mus musculus with 12 samples.

Results

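The extracellular matrix and stellate cell genes are 50 genes, chosen by their GENCODE M21 symbols out of 54232 gene IDs counted in whole mouse liver. They code for collagens, matrix glycoproteins and proteoglycans, the enzymes that cut or cross-link matrix and their inhibitors, the TGF-beta ligands, the PDGF receptors, and marker proteins of stellate cells and myofibroblasts. The livers came from 5 pair-fed (PF) and 7 alcohol-fed (AF) mice, all male C57BL6/J with an age label of 8 weeks and 1 library per liver. PF mice, labelled Control, received an isocaloric high-fat liquid diet for 8 weeks. AF mice, labelled Alcohol, received the high-fat liquid diet with ethanol by the intragastric route, raised up to 27 g/kg/day, and a weekly binge of 5 g/kg. Per the methods of the study, AF mice also ate a solid diet rich in cholesterol and saturated fat, and livers were taken 1 day after the last binge. Whether PF mice ate this solid diet too is not stated plainly, so a difference in solid diet between the groups cannot be told apart from ethanol here. The livers are called PF1 to PF5 and AF1 to AF7 after the replicate numbers of the labels.

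Fibrous matrix of the liver is made mainly by stellate cells, the pericytes of the sinusoids that store vitamin A, and by fibroblasts around the portal tracts. In injured liver, stellate cells can turn into myofibroblasts, which gain contractile proteins and secrete fibrillar collagen under signals such as TGF-beta and PDGF, while metalloproteinases cut matrix, TIMP proteins inhibit them, and lysyl oxidases cross-link collagen and elastin. Hepatocytes, endothelial cells and bile duct cells add matrix proteins of their own, among them plasma fibronectin and the collagens of basement membranes.

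Between 24129900 and 28594027 reads per PF liver and between 25099033 and 30578639 per AF liver were counted on genes. Levels are given as CPM, counts per 1e6 reads of the library total after TMM scaling in edgeR (factors 0.832 to 0.901 in PF, 0.88 to 1.36 in AF livers). Groups were compared over 14168 genes with the quasi-likelihood test of edgeR, and an adjusted p under 0.05 (Benjamini-Hochberg) counts as past the threshold. The hepatocyte gene Alb was at 73643 to 110892 CPM in PF and 37147 to 83937 CPM in AF livers, and the stellate cell gene Lrat at 9.64 to 20.5 CPM and 23.0 to 46.6 CPM, so the libraries hold RNA of both. In whole tissue, a change in the number of cells of a type and a change in the RNA of each cell cannot be told apart. The samples are separate mice, and their p-values measure the spread between these livers.

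Most matrix and stellate cell genes were higher in AF than in PF livers. Of the 50 genes, 43 rose and 2 fell (Col5a3 and Fn1), while Col18a1, Tgfbi, Acta2, Reln and Hand2 did not pass the threshold. The edgeR adjusted p of the 43 ran from 4.17e-05 (Mmp13, which passed the filter on low counts through the AF livers only) to 0.0461 (Col15a1). Of the higher genes that passed this filter in PF livers alone, Col4a1 had the lowest, 2.31e-04. For comparison, 22.0% of all genes tested were higher and 17.8% were lower. The median log2 fold change was 1.55 over the 50 genes and 0.04 over all genes tested, and 17 of the 50 but 3.1% of all genes reached a log2 fold change of 2 or more. Every AF liver was above every PF liver for 19 genes, where the share over all genes is 8.20%, and below for Col5a3 and Fn1, where it is 9.49%. All 50 passed the filter on low counts, 7 of them (Mmp13, Mmp23, Timp1, Lox, Loxl1, Tgfb2 and Tgfb3) through the AF livers only, and of the other 43 genes 36 were higher (19.8% of all genes that passed in PF livers alone). Of these 43 genes, 11 reached a log2 fold change of 2 or more (1.28% of all such genes), and 16 had every AF liver above every PF liver (7.74%).

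The scaling of the libraries bears on these counts. With library totals in place of TMM factors, the median log2 fold change of all genes moved from 0.04 to 0.40. Then 47 of the 50 were higher, against 45.6% of all genes, and only Col5a3 was lower, against 6.62% of all genes.

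**Figure D1:**
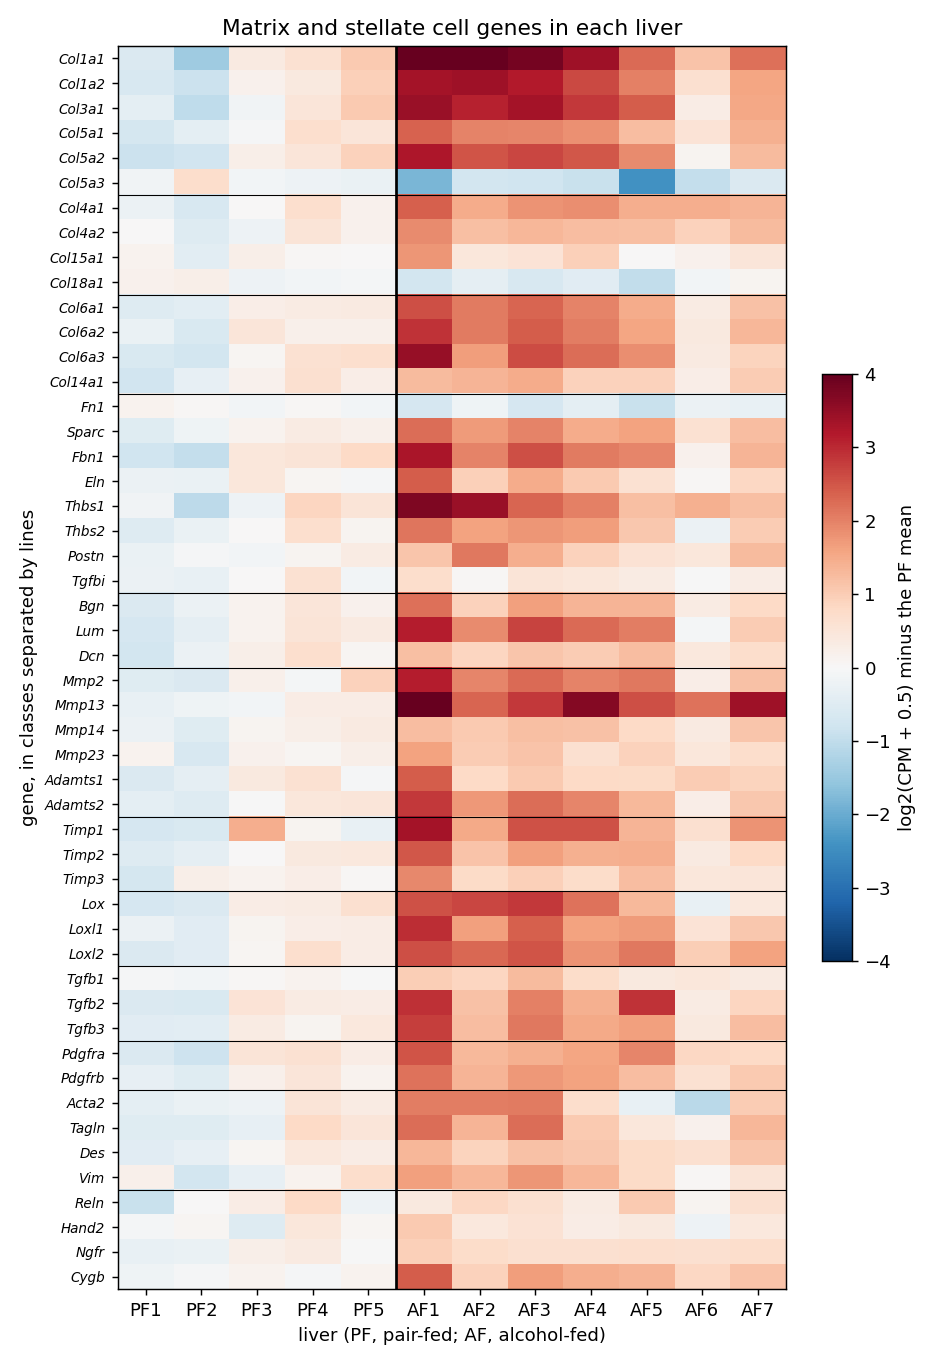
Level of each of the 50 genes (rows, in 12 classes separated by lines) in each liver (columns), as log2(CPM + 0.5) minus the PF mean, with colours ending at 4 in each direction. AF1 is the darkest column and AF6 the palest of the AF columns, and Col5a3, Col18a1 and Fn1 are the rows that are blue in most AF livers.

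Fibrillar collagens form the banded fibres of scar tissue. Of these, 5 chains rose in AF livers and Col5a3 fell. Col1a1 (ENSMUSG00000001506, chromosome 11, 94936224 to 94953042 of GRCm38), the main chain of type I collagen, was at 1.53, 0.641, 3.46, 4.17 and 5.79 CPM in PF1 to PF5, and at 6.18 CPM in the lowest, 31.6 CPM in the median and 58.8 CPM in the highest AF liver. The lowest AF liver, AF6, lay just above the highest PF liver, so the groups did not overlap, while AF1, AF2 and AF3 were at 58.8, 53.3 and 42.8 CPM. The log2 fold change of Col1a1 was 3.33 ± 0.635 (SE, edgeR adjusted p = 0.00163), on 362 reads in all PF and 7123 reads in all AF livers.

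Col1a2, the partner chain in type I collagen, rose from a mean of 11.4 ± 5.97 CPM in PF to 67.3 ± 38.3 CPM in AF livers (SD, n = 5 and n = 7), or by a log2 fold change of 2.56. Col3a1 (ENSMUSG00000026043, chromosome 1, 45311538 to 45349706), the chain of type III collagen, which lies in the fine reticular fibres of liver, was at 20.1, 12.8, 23.6, 37.2 and 54.7 CPM in PF livers, and at 32.4 (lowest), 188 (median) and 294 CPM (highest) in AF livers. AF6 at 32.4 CPM was inside the PF range, and the other 6 AF livers were above it. Its log2 fold change was 2.57 ± 0.523 (SE, edgeR adjusted p = 0.00234). Col5a1 and Col5a2, chains of type V collagen that sits in the core of type I fibrils, had log2 fold changes of 1.75 and 2.26. Col5a2 and Col3a1 are neighbours on chromosome 1, 24614 bases apart.

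Col5a3 (ENSMUSG00000004098, chromosome 9, 20770050 to 20815067), the third type V chain, moved the other way. It was at 9.45, 17.2, 9.67, 8.85 and 8.60 CPM in PF livers, and at 1.51 (lowest), 5.35 (median) and 6.72 CPM (highest) in AF livers. Every AF liver was below every PF liver, and PF2 stood above the other PF livers. The log2 fold change was -1.19 ± 0.318 (SE, edgeR adjusted p = 0.0104), and it stayed between -1.69 and -0.85 in all alternatives.

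In these livers the chains of type I collagen differed in fold change. The ratio of Col1a1 to Col1a2 CPM does not depend on the scaling of a library, and it was 0.12 to 0.308 in PF and 0.334 to 0.548 in AF livers, without overlap (geometric means 0.238 and 0.437, exact two-sided permutation p = 0.00126, 0.0101 after adjustment over the 8 ratios compared). This p is the smallest that 5 against 7 livers can give. The ratio of Col3a1 to Col1a1 went from a geometric mean of 10.9 to 5.88 (exact permutation, adjusted p = 0.0202), with AF5 at 10 and the other AF livers at 4.26 to 6.33. These ratios were chosen after the counts had been seen, and the adjustment of their p-values does not cover that choice.

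**Figure D2:**
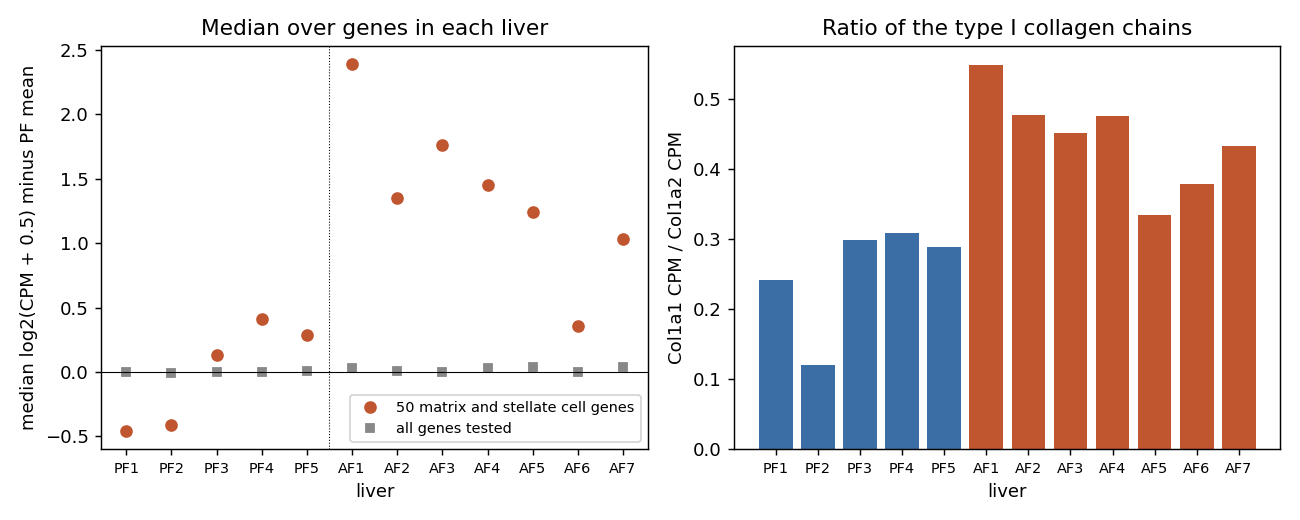
Left, median over the 50 genes (circles) and over all genes tested (squares) of log2(CPM + 0.5) minus the PF mean, for each liver. Right, Col1a1 CPM divided by Col1a2 CPM in each liver (bars from 0); all 7 AF bars, from 0.334 up, are above the highest PF bar at 0.308.

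Col4a1 and Col4a2, the chains of type IV collagen, form the network of basement membranes and also lie along the sinusoids. Both were higher in every AF liver than in any PF liver. Col4a1 (ENSMUSG00000031502, chromosome 8, 11198423 to 11312826) was at 18.7, 14, 22.3, 35.1 and 24.8 CPM in PF livers, and at 57.3 (lowest), 61.8 (median) and 118 CPM (highest) in AF livers. AF1 stood apart at 118 CPM, and the other AF livers lay between 57.3 and 81.8 CPM. The log2 fold change was 1.69 ± 0.237 for Col4a1 (SE, edgeR adjusted p = 2.31e-04) and 1.3 ± 0.189 for Col4a2 (SE, edgeR adjusted p = 2.93e-04). Both genes start head to head and overlap by 22 bases, and since the strand setting of the counting is not given in the sources used here, reads of the overlap could have been lost or shared. Their ratio, Col4a1 to Col4a2, went from a geometric mean of 1.28 to 1.69 (exact permutation, adjusted p = 0.0202), with PF3 at 1.51 above AF7 at 1.39.

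The other basement membrane collagens hold endostatin-like domains that can be cut off. Col15a1 was at a mean of 9.28 ± 1.57 CPM in PF and 15.7 ± 7.91 CPM in AF livers (SD, n = 5 and n = 7), with AF1 at 32.4 CPM, and its log2 fold change of 0.76 was barely past the threshold (edgeR adjusted p = 0.0461). This call was lost in 11 of 22 alternatives, among them each fit without 1 PF liver and the fit without AF1. Col18a1, which hepatocytes also make, was at a mean of 365 ± 49.6 CPM in PF and 273 ± 71.8 CPM in AF livers (SD, n = 5 and n = 7). Its log2 fold change was -0.42 (95% interval -0.76 to -0.08, edgeR adjusted p = 0.0713), and 5 of 7 AF livers were below every PF liver.

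Type VI collagen, a beaded filament around cells built of 3 chains, had all of them higher in AF livers. The log2 fold changes were 1.89 for Col6a1, 2.11 for Col6a2 and 2.16 for Col6a3 (edgeR adjusted p = 0.00146, 0.00142 and 0.0055). Col6a3 was at 3.69, 3.34, 6.17, 9.24 and 9.55 CPM in PF livers, and at 7.71 (lowest), 22.6 (median) and 70.3 CPM (highest) in AF livers. Again AF6 was inside the PF range and AF1 was the highest. Col6a1 and Col6a2 lie 85161 bases apart on chromosome 10, and their ratio was 1.78 to 2.68 in PF and 1.62 to 2.02 in AF livers (exact permutation, adjusted p = 0.123). Col14a1, which binds along collagen fibrils, went from a mean of 52.4 ± 18.8 CPM in PF to 105 ± 26.3 CPM in AF livers (SD, n = 5 and n = 7), or by a log2 fold change of 1.00. The ratio of Col1a1 to Col14a1 was 0.0161 to 0.0976 in PF and 0.104 to 0.494 in AF livers (exact permutation, adjusted p = 0.0101).

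Promoter windows, from 250 bases before to 50 bases after a start, were taken from RefSeq on GRCm38.p6 and held 34 of the 50 genes, with 38 windows since some genes have several starts. Several collagen genes rose together, and the 150 bases before the start are shown for Col3a1, together with Mmp13, the gene with the largest log2 fold change. Capitals mark the letters TGACTCA, to which AP-1 factors bind, and TATAAA, the letters of the TATA box. Each line gives the gene, its place and strand, and the sequence from 5′ to 3′ up to the base before the start.
Col3a1 (chr1:45311388-45311537, plus strand): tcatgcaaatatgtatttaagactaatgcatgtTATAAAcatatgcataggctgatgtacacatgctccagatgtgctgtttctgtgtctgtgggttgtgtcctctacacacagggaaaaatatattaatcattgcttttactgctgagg
Mmp13 (chr9:7272364-7272513, plus strand): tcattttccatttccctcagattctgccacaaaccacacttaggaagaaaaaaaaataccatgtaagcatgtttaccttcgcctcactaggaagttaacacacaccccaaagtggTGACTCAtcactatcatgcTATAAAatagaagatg

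Read on both strands of the 250 bases before each start, TGACTCA was found in 2 of the 38 windows, of Col6a1 and Mmp13, against 4.46% of all 32851 windows of the table. TATAAA was in 7 of the 38 against 12.4% of all windows, CCAAT in 12 against 33.8%, and CATTCC, the M-CAT element, in 5, that of Acta2 among them, against 12.6%. The CArG box, known from smooth muscle genes, was in 0 of the 38 and in 1.47% of all windows. It was read strictly, as CC, then only A or T, then GG. Boxes with another letter in the middle were thus not counted, and 16 of the 50 genes had no window. In Mmp13 TGACTCA is close to TATAAA and does not overlap it, while in Col6a1, whose GENCODE start lies upstream of the RefSeq start, it falls inside the gene as GENCODE places it. Also inside their GENCODE genes are CATTCC in Acta2, Col18a1 and Col6a2, CCAAT in Col1a2, Timp2 and Vim, and TATAAA in Vim. TATAAA lies 16 to 11 bases before the start in Mmp13 and 117 to 112 bases before it in Col3a1. A match of letters is a description of these windows, and binding was not measured.

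Among matrix glycoproteins and elastic fibre proteins, 6 rose, Fn1 fell and Tgfbi did not pass. Fn1 (ENSMUSG00000026193, chromosome 1, 71585520 to 71653200), the gene of fibronectin, which hepatocytes secrete into plasma, was at 2274, 2134, 1915, 2142 and 1905 CPM in PF livers, and at 1117 (lowest), 1574 (median) and 1850 CPM (highest) in AF livers. Every AF liver was below every PF liver, and the log2 fold change was -0.46 ± 0.157 (SE, edgeR adjusted p = 0.0325). The call was lost in 7 of 22 alternatives, and with library totals the log2 fold change of Fn1 was -0.12 (edgeR adjusted p = 0.418). Fn1 made up 62.7% of the summed CPM of the 50 genes in PF and 38.7% in AF livers. The levels of 10 hepatocyte marker genes, summed, were 100303 to 148020 CPM in PF and 50275 to 105448 CPM in AF livers, with a median log2 fold change of -0.73. Of the 10 genes, 3 were lower with edgeR, beside 17.8% of all genes, and 4 with library totals, beside 6.62%. Of the 10, 8 had an unadjusted p under 0.05, and 9 passed the threshold with DESeq2 and 9 with limma-voom. The part of hepatocyte RNA in the result for Fn1 was not tested.

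Sparc, a collagen-binding protein of remodelled matrix, was at 44.5, 55, 68.3, 78.2 and 71.1 CPM in PF livers, and at 94.8 (lowest), 190 (median) and 295 CPM (highest) in AF livers. The groups did not overlap, and the log2 fold change was 1.61 ± 0.246 (SE, edgeR adjusted p = 4.18e-04). Fbn1, the backbone of microfibrils, and Eln, elastin itself, had log2 fold changes of 2.13 and 1.67, with Eln at only 0.735 ± 0.266 CPM (SD, n = 5) in PF livers. Thbs1 and Thbs2 are thrombospondins, matrix proteins of which Thbs1 can activate latent TGF-beta. Thbs1 was higher in every AF liver than in any PF liver and rose from a mean of 2.29 ± 1.3 CPM in PF to 14.2 ± 11.4 CPM in AF livers (SD, n = 5 and n = 7), with AF1 and AF2 at 33.2 and 27.2 CPM, and Thbs2 had a log2 fold change of 1.56.

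Postn, periostin, went from a mean of 11.8 ± 1.93 CPM in PF to 28.0 ± 12.3 CPM in AF livers (SD, n = 5 and n = 7), or by a log2 fold change of 1.25 without overlap, and here AF2 was the highest liver at 52.4 CPM. Tgfbi, a TGF-beta-induced matrix protein that macrophages also make, was at a mean of 70.5 ± 20.1 CPM in PF and 87.4 ± 15.4 CPM in AF livers (SD, n = 5 and n = 7), with a log2 fold change of 0.31 (95% interval -0.02 to 0.64, edgeR adjusted p = 0.157). PF4 stood apart for Tgfbi at 105 CPM, above all AF livers but AF1 at 112 CPM. Without PF4, Tgfbi passed as higher (log2 fold change 0.50, edgeR adjusted p = 0.0168), and so it did with library totals (0.70, edgeR adjusted p = 0.0238).

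The 3 small leucine-rich proteoglycans, which coat collagen fibrils and set their width, all rose. Dcn, decorin, was already abundant, with 125, 179, 245, 331 and 222 CPM in PF livers and 282 (lowest), 422 (median) and 494 CPM (highest) in AF livers. AF6 at 282 CPM was below PF4 at 331 CPM, and the log2 fold change was 0.89 ± 0.218 (SE, edgeR adjusted p = 0.00648). Lum, lumican, lies 46984 bases from Dcn on chromosome 10 and rose from a mean of 12 ± 4.04 CPM in PF to 52.6 ± 31.9 CPM in AF livers (SD, n = 5 and n = 7), or by a log2 fold change of 2.13, while Bgn, biglycan, had a log2 fold change of 1.3. Whether Lum rose by more than Dcn was not tested.

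The metalloproteinases Mmp2, Mmp14, Adamts1 and Adamts2 were higher in AF livers, as were Mmp13 and Mmp23, which passed the filter on low counts through the AF livers only. Mmp13 (ENSMUSG00000050578, chromosome 9, 7272514 to 7283331), the main interstitial collagenase of the mouse, had the largest log2 fold change of the 50 genes. It was at 0.0492, 0.0915, 0.125, 0.315 and 0.317 CPM in PF livers, and at 2.49 (lowest), 4.28 (median) and 10.9 CPM (highest) in AF livers. The groups were far apart, with 21 reads in all PF and 1267 reads in all AF livers, and the log2 fold change was 4.88 ± 0.539 (SE, edgeR adjusted p = 4.17e-05, exact permutation p = 0.00126). These p-values are not counted as support, since Mmp13 entered the test through the AF livers only. In AF6, where the 5 fibrillar chains that rose were in or near the PF range, Mmp13 at 2.49 CPM was still above every PF liver.

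Mmp2, a gelatinase of fibroblasts, rose from a mean of 2.21 ± 1.25 CPM in PF to 10 ± 6.09 CPM in AF livers (SD, n = 5 and n = 7), or by a log2 fold change of 2.18. Mmp14, the membrane protease that activates Mmp2, was at 23.8, 20, 30.2, 33.2 and 36 CPM in PF livers, and at 36 (lowest), 61.4 (median) and 66.8 CPM (highest) in AF livers, which gave a log2 fold change of 1.00. Mmp14 values of PF5 and AF6 were nearly equal, with AF6 just above. Mmp23 was low in both groups, at a mean of 0.516 ± 0.217 CPM in PF and 1.45 ± 0.557 CPM in AF livers (SD, n = 5 and n = 7), with a log2 fold change of 1.49. Adamts1, which cuts proteoglycans, and Adamts2, which removes the amino-terminal end of procollagen, had log2 fold changes of 1.20 and 1.95, and for Adamts1 AF1 at 65.5 CPM stood apart from the other AF livers at 20.4 to 25 CPM.

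The inhibitors of metalloproteinases Timp2 and Timp3 rose as well, as did Timp1, which passed the filter through the AF livers only. Timp1, the classic inducible inhibitor, was at 0.344, 0.366, 3.13, 0.944 and 0.588 CPM in PF livers, and at 1.56 (lowest), 4.15 (median) and 13 CPM (highest) in AF livers. PF3 stood apart and was above AF5 and AF6, and 5 AF livers were above every PF liver. The log2 fold change of Timp1 was 2.37 ± 0.633 (SE, edgeR adjusted p = 0.0103), and 3.30 without PF3. Timp2, which also takes part in the activation of Mmp2, and Timp3, which binds to the matrix, had log2 fold changes of 1.44 and 1.00, with AF1 the highest liver for both. The ratio of Timp1 to Timp3 went from a geometric mean of 0.0299 to 0.0956 (exact permutation, adjusted p = 0.0283), with PF3 at 0.114 inside the AF range. Since Timp1 passed the filter through the AF livers only, this p is not counted as support.

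Lysyl oxidases, the copper enzymes that cross-link collagen and elastin, were represented by Loxl2, Lox and Loxl1, and the latter pair passed the filter through the AF livers only. Loxl2 was at 2.02, 2.24, 3.5, 5.58 and 4.16 CPM in PF livers, and at 6.96 (lowest), 15.8 (median) and 22.2 CPM (highest) in AF livers. It did not overlap between the groups, with a log2 fold change of 2.13 ± 0.323 (SE, edgeR adjusted p = 3.93e-04). Lox and Loxl1 had log2 fold changes of 2.62 and 2.70 from PF means of 0.591 and 0.448 CPM. Lox was at 0.335 CPM in AF6 and 0.879 CPM in AF7, both within the PF range of 0.148 to 1.09 CPM.

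**Figure D3:**
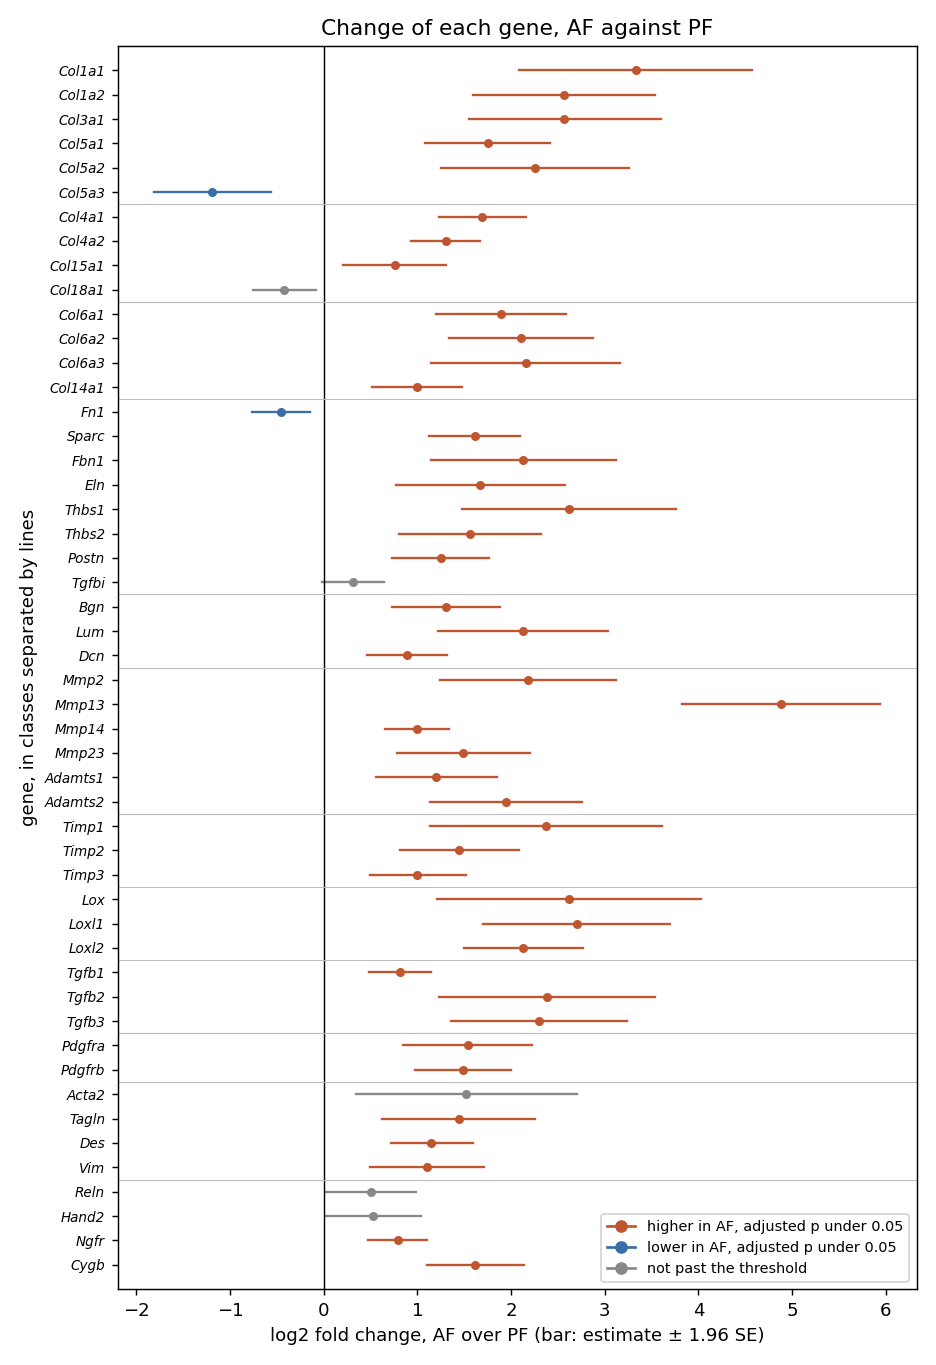
Log2 fold change of each of the 50 genes, AF over PF, with bars for the 95% interval and classes separated by lines. Orange points are higher and blue points lower at an edgeR adjusted p under 0.05, and the 5 grey points did not pass; Mmp13 lies farthest right at 4.88 and Col5a3 farthest left at -1.19.

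TGF-beta ligands, the growth factors that drive collagen synthesis in stellate cells, were represented by Tgfb1, which rose, and by Tgfb2 and Tgfb3, which passed the filter through the AF livers only. Tgfb1 (ENSMUSG00000002603, chromosome 7, 25687002 to 25705077) was at 5.61, 5.31, 5.92, 6.41 and 5.66 CPM in PF livers, and at 7.6 (lowest), 9.98 (median) and 14.7 CPM (highest) in AF livers. PF livers were tightly grouped and every AF liver was above them, and the log2 fold change was 0.81 ± 0.171 (SE, edgeR adjusted p = 0.00283). Tgfb2 and Tgfb3 had PF means of 0.82 and 0.622 CPM and had log2 fold changes of 2.38 and 2.30. Tgfb2 was highest in AF1 and AF5, at 9.02 and 8.72 CPM, and the other AF livers lay between 1.08 and 4.5 CPM.

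The receptors for PDGF, the main growth factor for dividing stellate cells, rose without overlap between the groups. Pdgfra was at 5.61, 4.71, 12.5, 13.5 and 10.8 CPM in PF livers, and at 15.5 (lowest), 24.3 (median) and 52.1 CPM (highest) in AF livers. The log2 fold change was 1.54 ± 0.349 (SE, edgeR adjusted p = 0.00439). Pdgfrb, the receptor that marks stellate cells, went from a mean of 7.90 ± 2.24 CPM in PF to 22.2 ± 8.00 CPM in AF livers (SD, n = 5 and n = 7), with a log2 fold change of 1.49. Their ratio, Pdgfrb to Pdgfra, was 0.709 to 1.14 in PF and 0.534 to 1.10 in AF livers (exact permutation, adjusted p = 0.769).

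Contractile and cytoskeletal proteins mark the myofibroblast state. Acta2 (ENSMUSG00000035783, chromosome 19, 34241090 to 34255590), smooth muscle actin and the usual marker of activated stellate cells, was at 0.984, 1.10, 1.17, 2.28 and 1.90 CPM in PF livers. In AF livers Acta2 was at 7.41, 7.43, 7.59, 2.63, 1.08, 0.41 and 3.41 CPM in AF1 to AF7. The livers AF1, AF2 and AF3 were nearly equal and far above the PF range, AF5 was within it and AF6 was below it. The log2 fold change of 1.52 ± 0.604 (SE) did not pass the threshold (95% interval 0.34 to 2.70, edgeR adjusted p = 0.0599, exact permutation p = 0.141), and it passed in 5 of 22 alternatives. The ratio of Acta2 to Des was 0.622 to 0.921 in PF and spread from 0.136 to 2.03 in AF livers (exact permutation, adjusted p = 0.804).

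Tagln, the actin-binding protein SM22, had a log2 fold change of 1.44 (edgeR adjusted p = 0.016), and its exons overlap those of Pcsk7 and Gm48529 on the other strand, so its counts are uncertain. Des, desmin, the filament of resting and activated stellate cells, was higher in every AF liver than in any PF liver and rose from a mean of 1.81 ± 0.59 CPM in PF to 4.03 ± 0.754 CPM in AF livers (SD, n = 5 and n = 7), or by a log2 fold change of 1.15. Vim, the general filament of mesenchymal cells and leukocytes, had a log2 fold change of 1.10, with AF6 and AF7 within the PF range.

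Of the 4 stellate cell markers, Ngfr and Cygb rose while Reln and Hand2 did not pass. Cygb (ENSMUSG00000020810, chromosome 11, 116645595 to 116654313), a globin of stellate cells, was at 3, 3.34, 3.79, 3.26 and 3.80 CPM in PF livers, and at 6.44 (lowest), 9.55 (median) and 20.5 CPM (highest) in AF livers. The PF livers were close together and the groups did not overlap, with a log2 fold change of 1.62 ± 0.267 (SE, edgeR adjusted p = 6.81e-04). Ngfr, the p75 neurotrophin receptor, varied least among AF livers of the 50 genes, at 4.29 to 5.44 CPM, against 2.02 to 3.46 CPM in PF livers, and its log2 fold change was 0.79 ± 0.16 (SE, edgeR adjusted p = 0.00237). Once GC content and exon length were corrected for, Ngfr did not pass (log2 fold change 0.37, edgeR adjusted p = 0.106). Reln, a secreted protein of stellate cells, was at a mean of 45.2 ± 19.0 CPM in PF and 63.9 ± 14.2 CPM in AF livers (SD, n = 5 and n = 7). The log2 fold change of Reln was 0.50 ± 0.245 (SE, edgeR adjusted p = 0.119, exact permutation p = 0.0581). Hand2, a transcription factor of stellate cells, had a log2 fold change of 0.53 ± 0.26 (SE, edgeR adjusted p = 0.116, exact permutation p = 0.0682). The 748 reads of Hand2 may include some of Hand2os1, a gene with 1618 reads whose exons overlap it on the other strand.

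**Figure D4:**
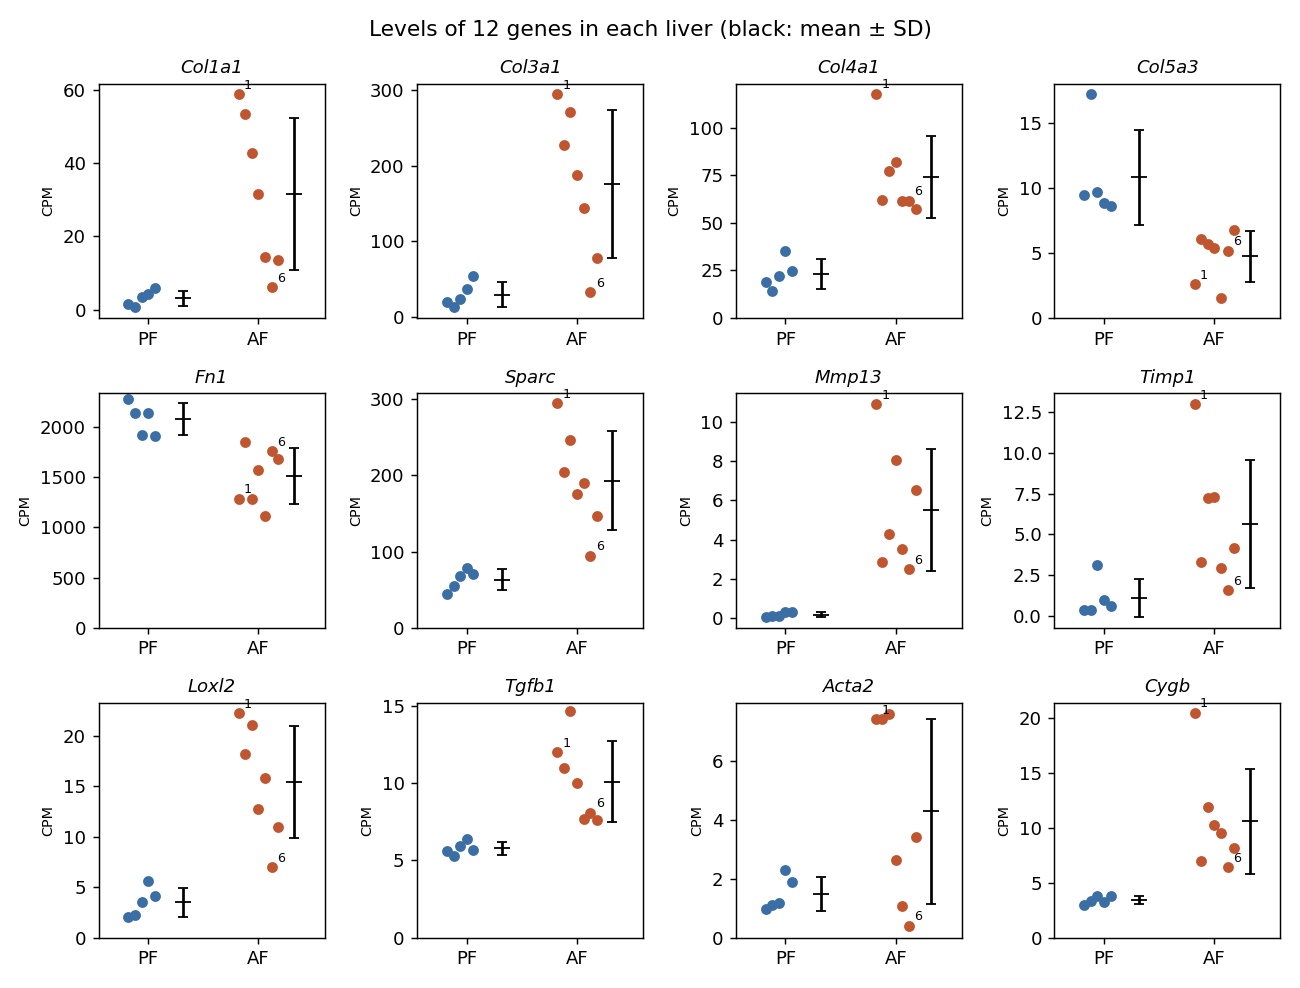
CPM of 12 of the genes in each PF (blue) and AF (orange) liver, with the mean and SD of each group in black and AF1 and AF6 numbered. AF6 is the lowest or among the lowest AF livers for Col1a1, Col3a1, Sparc, Mmp13 and Acta2. For Col1a1, Col4a1, Sparc, Mmp13, Loxl2, Tgfb1 and Cygb every AF liver is above every PF liver.

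The AF livers differed among themselves in how far the genes rose. The median over the 50 genes of log2(CPM + 0.5) minus the PF mean was 2.39 in AF1, 1.35 in AF2, 1.76 in AF3, 1.45 in AF4, 1.24 in AF5, 0.36 in AF6 and 1.03 in AF7. In PF1 to PF5 it was -0.46, -0.41, 0.13, 0.41 and 0.29, and over all genes tested it was -0.01 to 0.04 in all livers. AF6 lay below PF4, and the other AF livers lay above every PF liver. AF1 was the highest AF liver for 37 of the 50 genes (74%), against 17.7% of all genes tested and 37.5% of all genes called higher. AF6 was the lowest AF liver for 40 of the 50 (80%), against 27.6% and 50.5%. The TMM factor was also highest in AF1 (1.36) and lowest among AF livers in AF6 (0.88). The summed hepatocyte markers were at 56260 CPM in AF1 and, inside the PF range, at 102252 CPM in AF6. Neither liver was the extreme, with AF4 lower at 50275 CPM and AF7 higher at 105448 CPM. The part of these values in the order of the livers was not tested. Of the genes called higher, 19 had every AF liver but AF6 above every PF liver, and 5 more had 5 AF livers above. The shares over all genes were not counted for these numbers, so they are no result about the 50 genes.

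The summed CPM of the 6 fibrillar collagen chains also had AF1 as the highest and AF6 as the lowest AF liver. It was 41, 40.4, 55.8, 74.5 and 101 CPM in PF livers and 520, 436, 454, 327, 226, 69.2 and 149 CPM in AF1 to AF7. AF6 was within the PF range, and AF7 was the next lowest. Without AF1 and AF6, an alternative chosen after the data had been seen, 44 genes were higher and 2 were lower, and Acta2 then passed (log2 fold change 1.57, edgeR adjusted p = 0.0224).

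Per length of the gene's exons, the level of Fn1 was the highest of the 50 genes in both groups, at 177 CPM per kb in PF and 129 CPM per kb in AF livers. In PF livers the levels of Col18a1 (52.0 CPM per kb), Dcn (37.7), Tgfbi (18.7), Sparc (16.7) and Bgn (15.5) came next. In AF livers Dcn (70.0 CPM per kb) and Sparc (51.0) were ahead of Col18a1 (38.8) and Bgn (38.3), and Lum (21.5) and Col3a1 (18) followed Tgfbi (23.2). The levels of Col1a1 and Col1a2, 0.475 and 0.915 CPM per kb in PF livers, were 4.80 and 5.41 CPM per kb in AF livers. Of the 50 genes, 24 had a PF mean under 5 CPM.

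Genes that act on collagen and matrix but are not among the 50 were counted from lists, to be read beside the 22.0% of all genes that were higher and the 17.8% that were lower (45.6% and 6.62% with library totals). Some genes of these lists, like 7 of the 50, passed the filter on low counts through the AF livers only, and for each such list the count over the genes that passed in PF livers alone is given too (over all genes tested, 2481 of 12534 of these were higher). Of 22 collagen processing enzymes tested, 12 were higher and 1 was lower, with a median log2 fold change of 0.55, and 18 were higher with library totals. Of the 19 that passed in PF livers alone, 9 were higher. Among the 12 were Serpinh1, the collagen chaperone HSP47 (6.87 ± 2.12 CPM in PF, n = 5, and 19.3 ± 8.02 CPM in AF livers, n = 7, SD), Plod2, a lysyl hydroxylase (log2 fold change 1.89), P3h3 (1.66) and Adamts14, a procollagen protease that passed through the AF livers only (3.16). Of 15 laminins, nidogens and perlecan, 12 were higher and 1 was lower, with a median of 1.14, and 10 of the 13 that passed in PF livers alone were higher. Nid1, which links laminin to type IV collagen, went from 12.4 to 29.5 CPM in PF livers to 39.1 to 188 CPM in AF livers, and Lama5 and Lamc3, the latter passing through the AF livers only, had log2 fold changes of 2.64 and 2.35. Over all genes tested the median was 0.04.

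Of 46 tested genes of the TGF-beta and BMP pathway, 14 were higher and 5 were lower, with a median log2 fold change of 0.39, where the shares over all genes were 22.0% and 17.8%. With library totals 27 were higher, against 45.6% of all genes, and 0 were lower, against 6.62%, and of the 44 that passed in PF livers alone 13 were higher with TMM scaling. Counts this near to the shares over all genes are no result about the pathway. Among those that rose most were Id1, a target of BMP signals (log2 fold change 2.20), the latent TGF-beta binding proteins Ltbp3 and Ltbp2 (2.07 and 1.78, Ltbp2 passing through the AF livers only), and Inhbb, an activin subunit (1.77). Ccn2, a known target of TGF-beta that was picked out after its values were seen, had a log2 fold change of 0.25 (edgeR adjusted p = 0.698). The ligands of the PDGF receptors, Pdgfa, Pdgfb, Pdgfc and Pdgfd, were all higher, with log2 fold changes of 0.88, 1.58, 0.96 and 1.40. Of 22 matrix receptors, 11 were higher and 3 were lower (15 and 1 with library totals), and 9 of the 20 that passed in PF livers alone were higher. The collagen receptor Ddr1 (log2 fold change 3.33), the collagen uptake receptor Mrc2 (2.53, passing through the AF livers only), Itga6 (2.25) and Lair1 (1.22) were among those that rose.

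In the fibrinolysis list, 3 of 7 genes were higher and 2 were lower, and with library totals 3 were higher and 0 were lower. Plat and Plaur passed through the AF livers only, and of the other 5 genes 1 was higher. The plasminogen activators Plat and Plau had log2 fold changes of 3.21 and 2.70, and Plg, plasminogen, and Serpinf2, its plasma inhibitor, both made by hepatocytes, fell by 0.69 and 0.51 on the log2 scale, calls that library totals did not give. With edgeR, 0 of 5 tested hyaluronan genes passed (1 at an unadjusted p under 0.05), and 0 did with DESeq2, 0 with limma-voom and 3 with library totals. Of the other collagen genes, 3 of 14 were higher and 3 were lower, about as in all genes tested (22.0% and 17.8%), and 2 of the 7 that passed in PF livers alone were higher. With library totals 6 of the 14 were higher and 3 were lower, beside 45.6% and 6.62% of all genes. Col27a1 fell by 1.42 and Col12a1 rose by 1.26 on the log2 scale, and Col25a1, which was picked out after its values were seen, went from 0.826 to 1.33 CPM in PF livers to 0.0313 to 0.143 CPM in AF livers. Of the other Mmp genes, 4 of 10 were higher (7 with library totals), and of the 6 that passed in PF livers alone 1 was, Mmp12, the macrophage elastase, which was at 0.64 to 1.67 CPM in PF and 26.6 to 408 CPM in AF livers (log2 fold change 7.16, edgeR adjusted p = 4.35e-05). Of the other Adamts genes 7 of 10 were higher, Adamts12, Adamts9 and Adamts5 among them, and 4 of the 7 that passed in PF livers alone, without Adamts12. Of the other lysyl oxidases Loxl3 was higher, and so was Loxl4, which passed through the AF livers only.

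Markers of the cell types that make matrix were set beside these results. The quiescent stellate cell list had 11 of 21 tested genes higher, with a median log2 fold change of 0.79, and 6 of its 23 genes are among the 50. Of these 6 genes, Des, Ngfr, Cygb and Pdgfrb were higher. The list also holds genes that are not particular to the resting state, such as Des, so its count is no measure of that state. Of the 20 list genes that passed in PF livers alone, 10 were higher. With library totals 17 of the 21 were higher, and the shares over all genes were 22.0%, and 45.6% with library totals. Its summed level was 222 to 417 CPM in PF and 374 to 521 CPM in AF livers, with Nes, Adamtsl2 and Lrat among the genes that rose and Gfap at 0.385 CPM or less in all livers. The portal fibroblast and mesothelium list had 6 of 15 higher (Fbln2, Cd34, Dpt and Entpd2 among them), or 4 of the 6 that passed in PF livers alone. With library totals 7 of the 15 were higher, near the share of 45.6% over all genes. The summed level of this list was 14.6 to 36.9 CPM in PF and 22.4 to 105 CPM in AF livers, with Gli1 at or near 0. The smooth muscle list, which shares Acta2 and Tagln with the 50, had 2 of 7 higher (4 with library totals), Tagln and Smtn, and 1 lower, Mylk (0 with library totals), with Cnn1 at or near 0 and summed levels of 61.1 to 88.2 and 46.4 to 95.1 CPM. Which of these cells the 43 higher genes came from was not tested.

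Markers of other cells were counted in the same way, and their lists differed in which AF livers were highest. Over all genes, 22.0% were higher and 17.8% were lower, and 45.6% and 6.62% with library totals. Among all genes that passed in PF livers alone, 19.8% were higher. The bile duct list had 7 of 8 tested genes higher (8 with library totals), Krt23, Tspan8, Epcam and Ehf among them. Krt23, Krt7 and Krt19 passed through the AF livers only, and 4 of the other 5 genes were higher. Its summed level was 51 to 250 CPM in PF and 78.3 to 1190 CPM in AF livers, with AF1 the highest and AF7 and AF6 the lowest. The recruited macrophage list had 5 of 11 higher, led by Gpnmb, Trem2 and Itgax, and Fabp5 lower (7 higher and 1 lower with library totals). In this list Ccr2, Ly6c2, Itgam and Chil3 did not pass, with log2 fold changes of 0.46, -0.84, 0.77 and -0.17. Gpnmb and Trem2 passed through the AF livers only, and 3 of the other 9 genes were higher. The list had a summed level of 134 to 523 CPM in PF livers, and of 1720, 408, 729, 910, 874, 171 and 196 CPM in AF1 to AF7, with AF2, AF6 and AF7 inside the PF range. Both lists hold Spp1, a gene of ducts and macrophages that made up most of the bile duct sum (46.4 to 239 CPM in PF and 64.9 to 1048 CPM in AF livers) and did not pass the threshold (edgeR adjusted p = 0.0635). The Kupffer cell list had 6 of 7 higher (also 6 with library totals), and Timd4 did not pass (log2 fold change -0.01, edgeR adjusted p = 0.983). Its summed level was 729 to 1044 CPM in PF and 1048 to 3149 CPM in AF livers. Here AF1 was the lowest AF liver and AF3 the highest, with AF6 at 1379 CPM. The sinusoidal endothelium list had 3 of 12 higher (Cd36, Lyve1 and Vwf), beside 22.0% of all genes, and 10 of 12 with library totals, beside 45.6%. Without Cd36, which hepatocytes also make, its sum was 219 to 446 CPM in PF and 310 to 471 CPM in AF livers, with AF1 the lowest AF liver. The platelet list had 2 of 3 higher (1 of the 2 that passed in PF livers alone), and 2 with library totals, at summed levels of 6.65 CPM or less. The neutrophil list had 0 of 10 past the threshold with edgeR (4 at an unadjusted p under 0.05), 3 with DESeq2, 1 with limma-voom and 1, as higher, with library totals. Its median log2 fold change was -0.51. In it S100a8, S100a9, Camp and Ngp were lowest, at -1.51, -1.45, -2.03 and -2.02, while Cxcr2 and Csf3r were at 0.04 and 0.43. The part of these cells in the levels of the 50 genes was not tested.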

How the data were processed

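The authors isolated total RNA with TRIzol, enriched polyadenylated RNA, prepared stranded libraries, aligned the reads to mm10 and deposited raw counts per Ensembl gene for all 12 livers, without normalization. The submitters' processing notes name FastQC 0.10.1, TopHat2 2.0.13 and HTSeq 0.10.0, and the annotation and strand setting of the counting are not given in the sources used here, so values of overlapping genes are uncertain. The Cuffdiff2 comparison of the methods needs the reads and was replaced by a count test on the same groups. Columns were assigned to livers by group and replicate number, and 54165 of 54232 gene IDs were named through GENCODE M21, whose coordinates on GRCm38 are given.

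Counts were analysed in R 4.3.3 with edgeR 4.0.16 (filterByExpr by group, TMM, glmQLFTest without covariates, Benjamini-Hochberg over 14168 genes). Standard errors were derived from the F statistic, and 95% intervals are about 1.96 standard errors to each side. These intervals are approximate and can be too narrow. Those drawn for Reln and Hand2 exclude no change, while the unadjusted edgeR p of both genes was not under 0.05. Single genes and ratios were also tested with an exact two-sided permutation test on log2 values (CPM + 0.5 for genes) over all 792 ways of dividing the libraries into 5 and 7, whose smallest p is 0.00126. Alternatives were DESeq2 1.42.0, limma 3.58.1 (voom with quality weights), RLE and upper-quartile normalization, library totals, filters of 1 count in any library and of a mean of 10 counts, an offset for GC content and length, the replicate number as a block, and each library left out in turn. The fit without AF1 and AF6 was chosen after the data had been seen. Within groups, the 31 pairs of libraries differed by at least 21.1 times the counting noise, so none was a repeat. The steps were tested on simulated data.

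The 50 genes and all gene lists were chosen with earlier results of these data known. Of each further list, at most 4 genes past the threshold with the largest change and a mean log2 CPM of at least 1 were named, plus defining markers, and some genes of these lists are not reported here by name.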

Additional observations from a re-analysis of the deposited data

Results flagged for a closer look

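For each of the 50 genes and both groups, the gap between the highest or lowest liver and its nearest neighbour was compared with the range of the group by Dixon's criterion. Of 100 such groups of values, 13 were beyond the 95% limit, where about 5 are given by chance. AF1 accounted for 9 of them, in each case as the highest AF liver, at 118 CPM for Col4a1, 64.5 CPM for Col4a2, 32.4 CPM for Col15a1, 5.99 CPM for Eln, 65.5 CPM for Adamts1, 77.5 CPM for Timp2, 95.8 CPM for Timp3, 5.44 CPM for Ngfr and 20.5 CPM for Cygb. Without AF1, Col15a1 no longer passed the threshold, and the other 8 of these genes did. Among PF livers, PF2 was high for Col5a3 at 17.2 CPM and low for Mmp23 at 0.137 CPM, PF4 was high for Tgfbi at 105 CPM, and PF3 was high for Timp1 at 3.13 CPM.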

How the results depend on the processing

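Of the 45 genes called, 42 were called in the same direction in all 22 alternatives, and no call was reversed. The exceptions were Col15a1, Fn1 and Ngfr. The number of higher genes was 41 to 47 over the alternatives and 42 to 45 when 1 library was left out. The number of lower genes was 2, and it was 1 (Col5a3) with library totals and with the filter of 1 count in any library, where Fn1 did not pass, 3 with DESeq2, limma-voom, the replicate block and the GC and length offset, where Col18a1 passed as well, and 1 to 3 when 1 library was left out. Fn1 lost its call without PF1, PF2, PF4, AF1 or AF3. Col15a1 lost its call with RLE normalization, with the GC and length offset, and without any of PF1 to PF5 or AF1 to AF4. Col18a1 passed as lower in 6 alternatives, Acta2 as higher in 5, and Tgfbi, Reln and Hand2 in 2 each, library totals among them. Why these calls moved was not tested.

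With the replicate number as a replicate block, 43 genes were higher and 3 were lower (Col5a3, Fn1 and Col18a1). The numbers are shared only as labels: the correlations of same-numbered livers were 0.006, -0.083, 0.105, 0.076 and 0.107, and no liver correlated best with its own number.

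Genes such as Mmp13, Mmp23, Lox, Loxl1 and Eln rest on 21 to 85 reads over all PF livers, so their PF levels rest on few reads.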
